A study of Homo sapiens with 4 samples.

Results

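The potassium channel genes described here were the genes whose symbol in the platform annotation begins with KCN and a further letter, without antisense transcripts and without KCNQ1OT1. There were 90 of them among 20046 named genes, read by 162 of 30112 named probes. The set was chosen by symbol, but the family was picked from these data with the change of KCNMA1 between WCE and vehicle known, so the values of that comparison are given as a description and support nothing beyond themselves. KCNIP4-IT1, a noncoding transcript from an intron of a channel-interacting protein gene, met the symbol rule, which leaves 89 genes for channel subunits and their regulators.

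RNA came from 22Rv1, an established human prostate cancer line grown from a xenograft. Cells received 10 µg/mL of WCE, a herbal extract, for 16 h, or vehicle for the same time. Each group had 2 Illumina bead arrays. No label ties an array to a culture of its own, so the spread behind each p-value is that between arrays and may be technical.

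Potassium channels let potassium leave or enter the cell along its electrochemical gradient, and so set the resting membrane potential and shape excitability, cell volume and secretion. Pore subunits are grouped by what opens them: voltage, intracellular calcium or sodium, or no stimulus at all in the case of background leak channels. Auxiliary subunits bind the pore and shift its gating or its transport to the membrane. In prostate epithelial cells the best known member is the BK channel, a large-conductance pore opened by voltage and calcium together, whose pore is encoded by KCNMA1 and whose partners are the beta subunits encoded by the KCNMB genes and the gamma subunit LRRC26.

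Quality was similar on the 4 arrays. Median raw signal was 85.1 and 81.7 on the WCE arrays, against 83.5 and 82.95 on the vehicle arrays, and the arrays of a group correlated across probes at r = 0.992 for WCE and r = 0.994 for vehicle. Of 8 prostate luminal markers analysed, 7 were detected on all 4 arrays, while KLK3 was detected on none. TMPRSS2 fell by 1.66 (adjusted p = 0.00205) and KLK2 fell by 1.05 (adjusted p = 0.0428) on the log2 scale in limma's fit, and the other 5 tested luminal markers did not pass. Of 10 stromal, endothelial and leukocyte markers, 4 were tested and 0 passed, and PECAM1, CDH5, VWF, PTPRC, CD3E and COL3A1 were detected on no array. COL1A1, LUM and CD68 were detected on all 4 arrays and DCN on 3. LUM had raw signals of 563.2 and 354.7 on the WCE arrays, against 242.9 and 402.4 on the vehicle arrays. CD68 had 1109.9 and 580.0 for WCE, against 1224.7 and 1094.5 for vehicle. A second CD68 probe went the other way, with 230.9 and 229.7 for WCE, against 174.9 and 184.2 for vehicle. The kept DCN probes also differed in direction, with log2 fold changes of -0.21 and 0.17. Raw signals were also summed over the brightest kept probe of each of the 4 tested markers of that list. The sums were 1903.6 and 1152.7 on the WCE arrays, against 1690.9 and 1695.9 on the vehicle arrays. The part of these markers in the results below was not tested.

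Most potassium channel genes gave no signal above background in these cells. A probe counts as detected where its deposited detection p-value, the fraction of negative controls that reach its brightness, lies below 0.05. Of the 162 member probes, 35 and 34 were detected on the WCE arrays, against 36 and 39 on the vehicle arrays. These are 21.6% and 21.0% for WCE and 22.2% and 24.1% for vehicle, where all named probes reached 55.9% and 53.2% on the WCE arrays and 56.4% and 55.4% on the vehicle arrays. Of the 90 genes, 49 had no probe detected on any array and 23 had a probe detected on all 4.

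A gene was tested where a probe was detected on both arrays of at least 1 group. This kept 29 of the 90 members, or 32.2%, against 12136 of all 20046 named genes, or 60.5%. The other 61 members had 102 probes with raw signals between 44.8 and 97.2. A low signal on an array gives only an upper limit for a transcript and does not show that the gene is silent.

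Detection differed by role. The tandem-pore leak channels had 8 of 15 genes tested and 4 detected on no array. The voltage-gated pore subunits had 7 of 25 genes tested, and 16 were detected on no array. Among the modifier subunits, which are silent alone and act only in complexes with other voltage-gated pores, 2 of 10 genes were tested. Of the inward rectifiers, which pass potassium more easily into the cell than out of it, 4 of 15 were tested. The calcium- and sodium-activated pores had 2 of 7 genes tested, and the auxiliary and regulatory subunits 6 of 17. Undetected genes included the cardiac KCNQ1 and its partner KCNE1, the beta-cell channel KCNJ11, the smooth muscle BK subunit KCNMB1 and the oncogene-associated KCNH1.

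**Figure D1:**
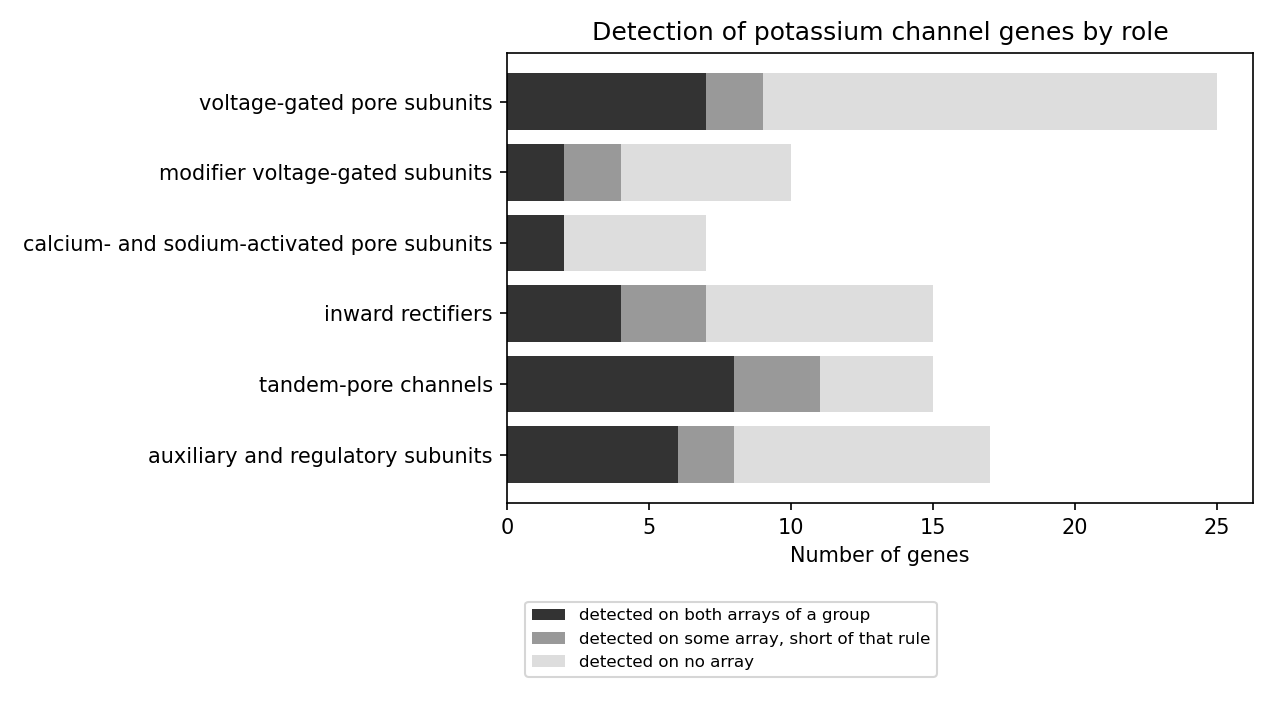
Number of potassium channel genes (x axis) in each role (y axis), split into genes with a probe detected on both arrays of a group, genes detected on some array short of that, and genes detected on none. The undetected part is the longest in every role except the tandem-pore channels, where 8 of 15 genes met the rule; KCNIP4-IT1 is not drawn.

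With WCE compared with vehicle across all tested genes, 1 of the 29 tested members passed an adjusted p of 0.05 in limma's fit, KCNMA1, which fell. Among all 12136 genes 222 passed, or 1.83%, of which 82 were lower, or 0.676%. At an unadjusted p below 0.05 there were 5 members, against 19.1% of all genes. The 2 arrays of each group did not overlap for 12 members, 5 of them higher and 7 lower after WCE, against 50.3% of all genes. The 7 lower include KCNK6, whose probes moved in opposite directions, and with its other probe the split was 6 higher and 6 lower. They also include KCNA6 and KCNH8, which met the detection rule only through the vehicle arrays. KCNK7, among the 5 higher, met it only through the WCE arrays. With every kept probe as a row, 1 of 33 member probes passed, that of KCNMA1, against 0.846% of all probes. The median log2 fold change of the tested members was 0.02 (16 above 0, 13 below), beside 0.01 over all tested genes. For 25 of the 29 it lay within 0.5 of 0. With the other KCNK6 probe, chosen after seeing the data, the median was 0.04 and 24 of the 29 lay within 0.5 of 0.

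**Figure D2:**
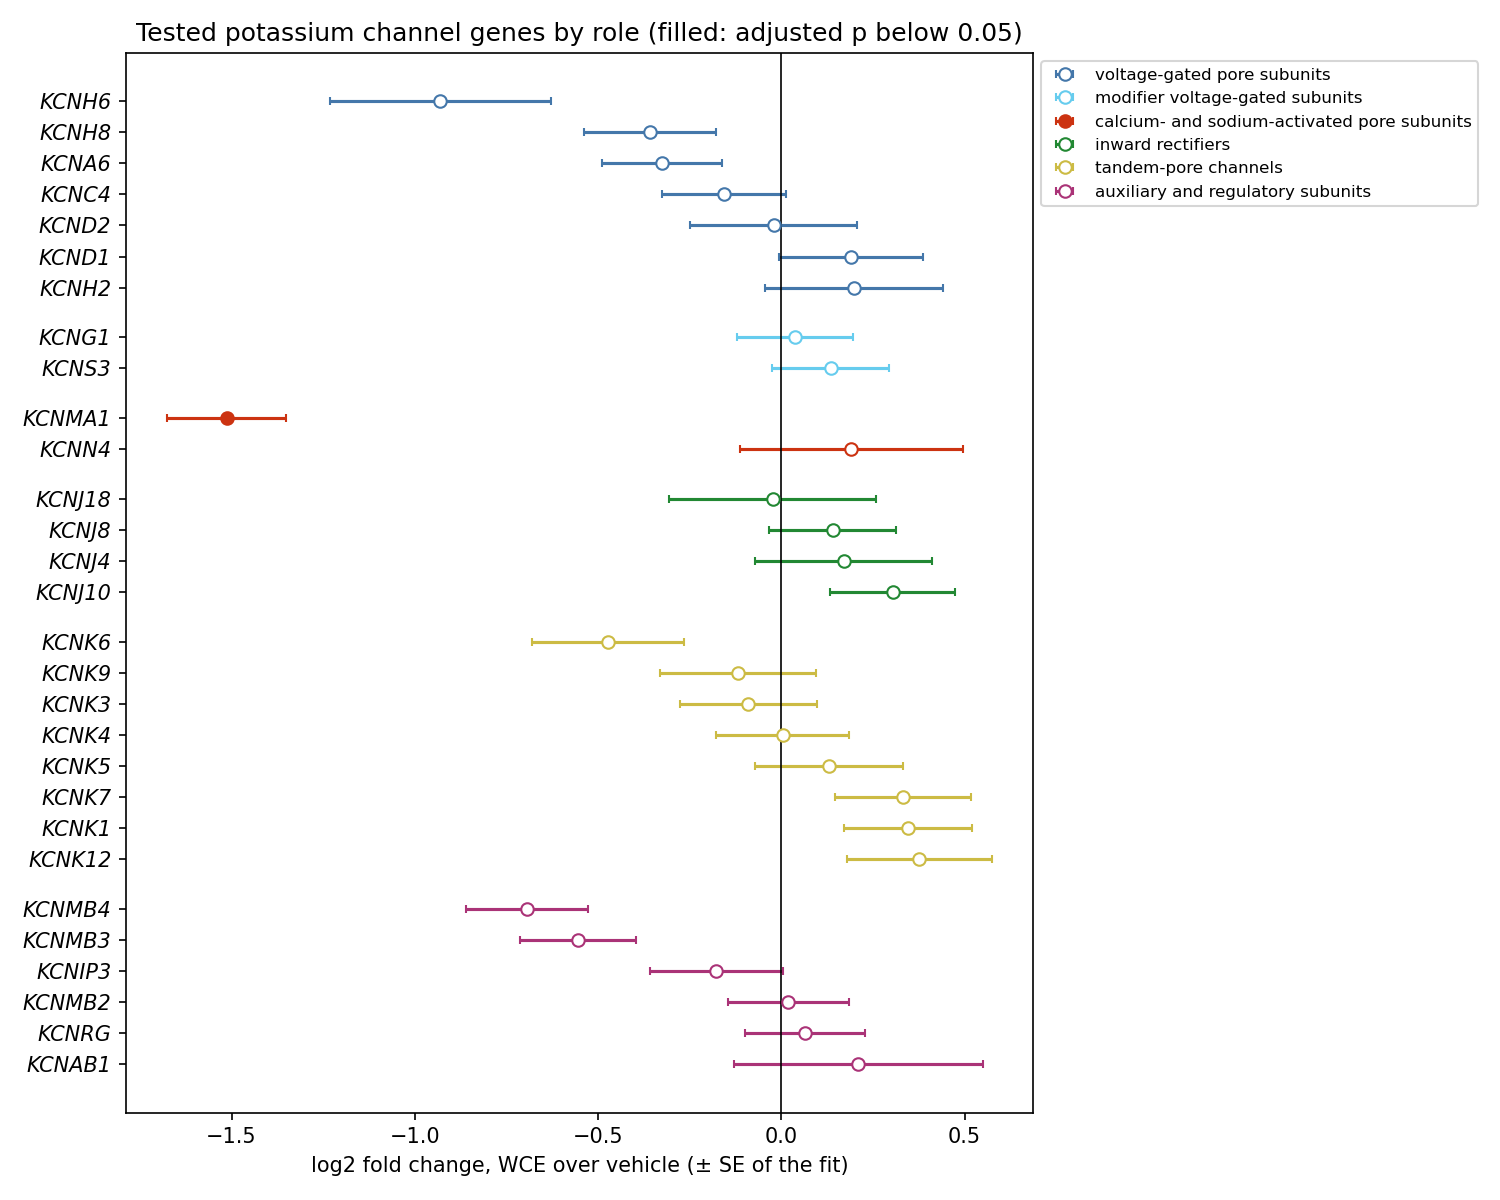
Log2 fold change, WCE minus vehicle (x axis), of the 29 tested potassium channel genes (y axis), with bars for the SE of limma's fit, colour for the role and a filled point where the adjusted p is below 0.05. KCNMA1 lies lowest at -1.51 and has the only filled point, and 25 of the 29 points lie within 0.5 of 0.

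The member that changed most was the BK pore gene itself. KCNMA1 (probe ILMN_2297765) had raw signals of 128.3 and 112.3 on the WCE arrays, against 227.5 and 245.9 on the vehicle arrays. After background correction, quantile normalization and log2, the levels were 6.09 and 6.01 for WCE, against 7.48 and 7.65 for vehicle. Both WCE arrays lay below both vehicle arrays, by far more than the arrays of a group differed from each other. The log2 fold change was -1.51 ± 0.16 (SE, n = 2 arrays each, 95% interval -1.88 to -1.15, limma adjusted p = 0.00232), so the level was 2.86-fold higher in vehicle. In RNA from a whole culture, fewer cells carrying the transcript and less transcript per cell cannot be told apart.

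KCNMA1 passed in the gene fit under each of 14 alternative settings, with log2 fold changes between -1.61 and -1.02. The smallest of these came without background correction. Its remaining probes, ILMN_1740508 and ILMN_1794282, were detected on no array, with raw signals between 61.0 and 73.3. The fall therefore rests on a single probe, and the transcripts that each probe reads are not analysed here. With every probe as a row and no detection filter, the adjusted p of the KCNMA1 probe was 0.0533.

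The beta and gamma subunits of the same channel were also measured. LRRC26, the gamma subunit that in LNCaP prostate cancer cells lets the BK pore open at resting voltage, fell after WCE. Its levels were 10.81 and 10.99 on the WCE arrays, against 11.86 and 11.74 on the vehicle arrays (log2 fold change -0.90 ± 0.16 SE, limma adjusted p = 0.0332), or 1.87-fold higher in vehicle. Raw signals were 2070.1 and 2036.4 for WCE, against 3695.9 and 3271.2 for vehicle, with no overlap.

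LRRC26 had 3 probes kept, and all of them were lower on both WCE arrays than on either vehicle array. Its second probe read 10.58 and 10.75 for WCE, against 11.37 and 11.38 for vehicle (log2 fold change -0.71). The remaining probe, detected on 1 of the WCE arrays, read 5.07 and 5.86 for WCE, against 6.41 and 6.22 for vehicle (-0.85). That probe was kept only through the vehicle group, which favours a lower WCE value. In the fit over all probes 0 of the 3 LRRC26 probes passed, with limma adjusted p of 0.0574, 0.0969 and 0.154. The gene call was also lost with median scaling (adjusted p = 0.069), with no detection filter (0.0809) and without vehicle replicate 1 (0.226) or 2 (0.104).

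KCNMB4, the beta subunit best known from neurons, where it slows BK gating, had levels of 7.06 and 7.00 on the WCE arrays, against 7.84 and 7.60 on the vehicle arrays. The groups did not overlap, and the log2 fold change was -0.69 ± 0.17 (SE, 95% interval -1.07 to -0.32), but the limma adjusted p was 0.0761. It passed with a strict detection filter (adjusted p = 0.047) and with the replicate number as a block (0.037), a fit in which the named genes shared 1 SE of 0.22.

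KCNMB3, a beta subunit that in some isoforms gives the BK channel fast inactivation, read 5.77 and 5.65 for WCE, against 6.29 and 6.24 for vehicle (log2 fold change -0.56 ± 0.16 SE, limma adjusted p = 0.116). Both WCE arrays were the lower ones. The KCNMB3 value rests on a single probe, as its other probes were detected on no array. KCNMB2, another inactivating beta subunit, had levels of 6.15 and 5.93 for WCE, against 5.99 and 6.06 for vehicle. These groups overlapped, with a log2 fold change of 0.02 (95% interval -0.35 to 0.39).

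**Figure D3:**
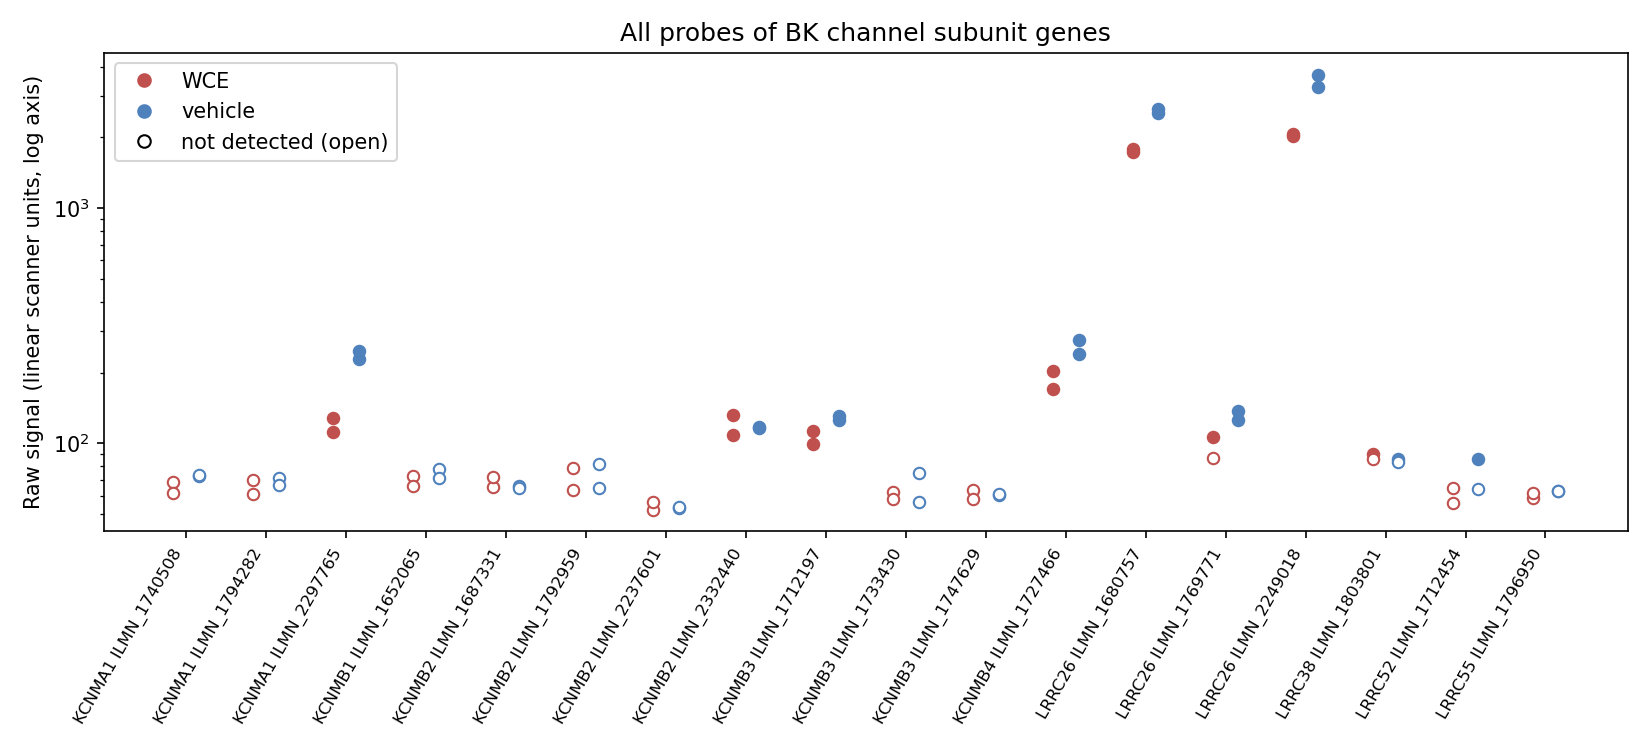
Raw scanner signal (y axis, log scale) on each array for every named probe of the BK pore, beta subunit and gamma subunit genes (x axis), with WCE arrays left of vehicle arrays and open points where the probe was not detected. The KCNMA1 probe ILMN_2297765 lies at 128.3 and 112.3 for WCE, below 227.5 and 245.9 for vehicle, while its other probes are open points near background.

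The starts of the genes that fell are shown because KCNMA1 and LRRC26 encode the pore and the gamma subunit of the same channel. The windows run from 250 bases before to 50 bases after the annotated start and come from RefSeq on GRCh38.p14, whose table held an entry for 70 of the 90 members. The KCNMA1 window is chr10:77637759-77638058 on the minus strand, taken at the more upstream of 2 starts, and that of LRRC26 is chr9:137170002-137170301 on the minus strand. Capitals mark GGGCGG, the GC box, or GCGTG, the core of the xenobiotic response element, on either strand.
KCNMA1: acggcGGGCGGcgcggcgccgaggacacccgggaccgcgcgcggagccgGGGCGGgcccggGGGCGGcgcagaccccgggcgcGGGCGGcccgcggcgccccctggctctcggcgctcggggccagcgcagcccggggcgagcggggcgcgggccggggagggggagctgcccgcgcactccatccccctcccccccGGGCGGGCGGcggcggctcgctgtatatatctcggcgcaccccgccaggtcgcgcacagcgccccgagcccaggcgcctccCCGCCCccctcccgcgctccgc
LRRC26: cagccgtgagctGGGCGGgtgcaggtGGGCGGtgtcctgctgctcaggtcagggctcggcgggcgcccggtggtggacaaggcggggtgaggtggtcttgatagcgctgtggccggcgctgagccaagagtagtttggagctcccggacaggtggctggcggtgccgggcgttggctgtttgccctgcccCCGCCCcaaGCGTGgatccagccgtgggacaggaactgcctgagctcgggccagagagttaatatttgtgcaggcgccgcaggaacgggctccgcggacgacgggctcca
G and C made up 85.7% of the KCNMA1 window and 69.0% of the LRRC26 window, where the median over all windows was 58.7%. Counting overlapping matches, the KCNMA1 window held 7 GGGCGG and 0 GCGTG, and the LRRC26 window held 3 GGGCGG and 1 GCGTG. Of 35116 windows of this length, 45.0% held GGGCGG and 36.5% held GCGTG. The matches describe these letters and do not show that a factor binds there.

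The other tested pore of the calcium-activated group was KCNN4, the intermediate-conductance channel of epithelial and blood cells. Its levels were 5.44 and 6.23 on the WCE arrays, against 5.25 and 6.03 on the vehicle arrays. The arrays of each group lay farther apart than the group means, and the log2 fold change was 0.19 ± 0.30 (SE, 95% interval -0.50 to 0.88).

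Of the 7 tested voltage-gated pores 0 passed in limma's fit, 1 had an unadjusted p below 0.05 (KCNH6), and their median log2 fold change was -0.16. KCNH6, which encodes an ERG-type channel related to the cardiac HERG pore, had a bright probe (ILMN_2235785) with raw signals of 12837.2 and 5446.3 on the WCE arrays, against 16344.6 and 13802.7 on the vehicle arrays. The normalized levels were 13.52 and 12.43 for WCE, against 14.01 and 13.80 for vehicle. Both WCE arrays were lower, but they were also far apart, with an SD of 0.77 against 0.14 in vehicle. The log2 fold change was -0.93 ± 0.30 (SE, 95% interval -1.61 to -0.25) with a limma adjusted p of 0.150.

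The KCNH6 value depended on which WCE array was used. Without WCE replicate 1 it was -1.49 (adjusted p = 0.00243), and without WCE replicate 2 it was -0.39 (adjusted p = 0.330). With the replicate number as a block the adjusted p was 0.00186, but that fit gave the genes named here the same SE of 0.22 and so leaves out the spread of KCNH6 itself. With the numbers crossed in the block, in the fit over all probes, the adjusted p of the KCNH6 probe was 0.198, against 0.00355 with the numbers as given. The other KCNH6 probes were detected on no array, with raw signals between 59.1 and 86.9. The KCNH6 value thus rests on a single probe, and the transcripts that this probe reads are not analysed here.

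The related KCNH8, an ELK-type channel, had levels of 5.51 and 5.15 for WCE, against 5.62 and 5.76 for vehicle (log2 fold change -0.36 ± 0.18 SE, limma adjusted p = 0.320). It was detected on 1 of the WCE arrays and on both vehicle arrays, and its log2 fold change was -0.18 without WCE replicate 2. KCNH8 thus entered the test only through the vehicle group, which favours a lower WCE value. KCNA6, a Shaker-type delayed rectifier, had levels of 4.97 and 4.89 for WCE, against 5.15 and 5.36 for vehicle. It was not above background on either WCE array and entered the test only through the vehicle group, where it was detected, which favours a lower WCE value. The 95% interval of its log2 fold change was -0.70 to 0.04 (limma adjusted p = 0.322). HERG itself, KCNH2, had overlapping groups and a log2 fold change of 0.20. The A-type channels KCND1 and KCND2 had values of 0.19 and -0.02. KCND1 met the detection rule only through the WCE arrays, which favours a higher WCE value. KCNC4, a fast-inactivating channel of the Shaw type, had a value of -0.16.

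**Figure D4:**
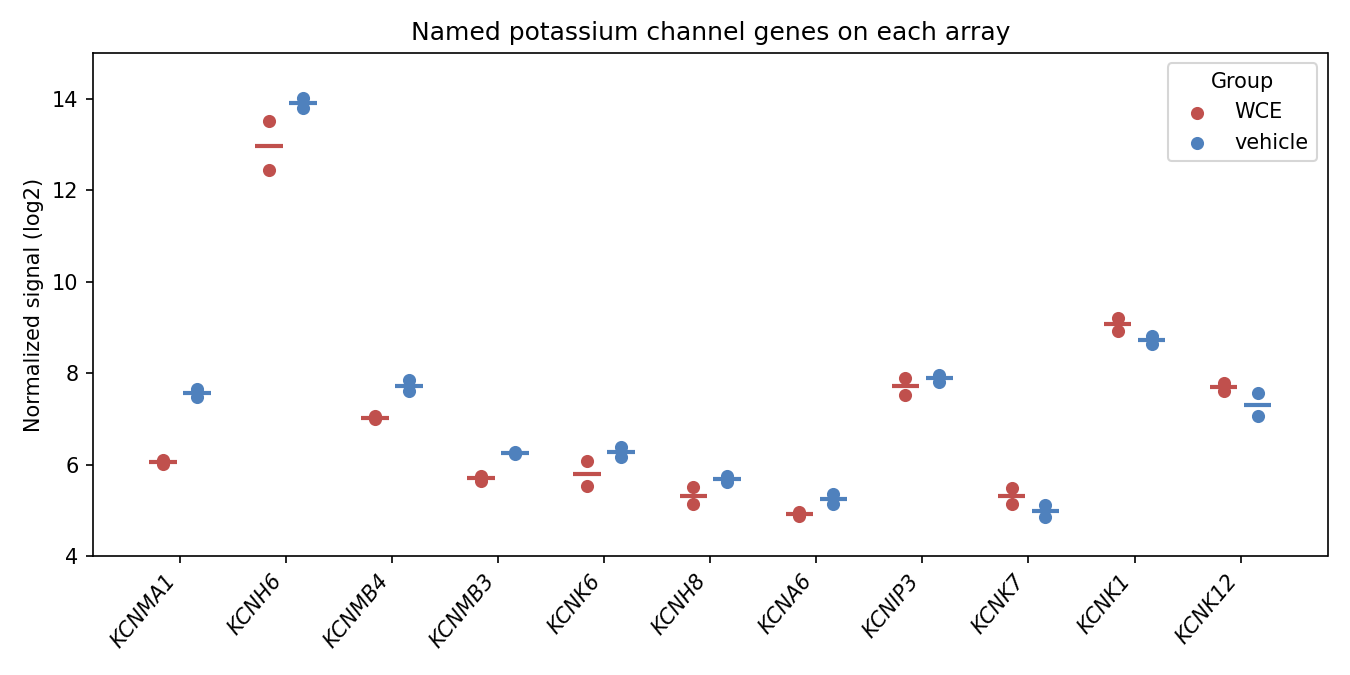
Log2 signal (y axis) on each array for the potassium channel genes named by rule (x axis), with WCE arrays left of vehicle arrays and bars for group means. KCNMA1 shows the widest gap between groups relative to the spread within them, and the KCNH6 arrays of the WCE group lie apart at 13.52 and 12.43.

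The modifier subunits KCNS3 and KCNG1 had log2 fold changes of 0.14 and 0.04 and neither passed. KCNS3 had a second tested probe with a value of 0.01. Among the inward rectifiers 0 of 4 passed, with a range from -0.02 to 0.30. KCNJ10, the glial and renal channel that clears extracellular potassium, had the highest of these values and did not overlap between groups (adjusted p = 0.378 in limma's fit). KCNJ8, a pore of ATP-sensitive channels, had 0.14, and KCNJ4 had 0.17 with detection on both WCE arrays and 1 vehicle array. KCNJ18 had -0.02, but it is nearly identical to KCNJ12, whose probes were not detected, so its probe cannot be assigned to a single gene with certainty.

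The tandem-pore channels, which carry background potassium leak, were the best detected group, and 0 of 8 passed. Their median log2 fold change was 0.07, with a range from -0.47 to 0.38, and with the other KCNK6 probe the median was 0.23 and the range -0.12 to 0.65. Without KCNK6 the range was -0.12 to 0.38. KCNK12, a subunit of the THIK type, had levels of 7.61 and 7.78 on the WCE arrays, against 7.56 and 7.07 on the vehicle arrays (log2 fold change 0.38 ± 0.20 SE, limma adjusted p = 0.343). The KCNK12 value was 0.63 without vehicle replicate 1 and 0.13 without vehicle replicate 2. KCNK1, or TWIK-1, had 9.22 and 8.93 for WCE, against 8.82 and 8.64 for vehicle (0.34 ± 0.17, adjusted p = 0.325), with a log2 fold change of 0.20 without WCE replicate 1. Its second probe read 8.69 and 8.74 for WCE, against 8.52 and 8.53 for vehicle, with a log2 fold change of 0.19. Both KCNK1 probes were higher on each WCE array than on either vehicle array. KCNK7, a subunit with no known current of its own, had 5.15 and 5.50 for WCE, against 4.86 and 5.12 for vehicle (0.33 ± 0.19, adjusted p = 0.376). It was 0.16 without WCE replicate 2 and 0.20 without vehicle replicate 1. The KCNK7 probe was detected on both WCE arrays and on 1 vehicle array. The gene thus entered the test only through the WCE group, which favours a higher WCE value. Its other probe was detected on no array.

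KCNK6, or TWIK-2, had probes that disagreed in direction. The probe that stood for the gene, ILMN_2074773, read 6.08 and 5.54 on the WCE arrays, against 6.40 and 6.17 on the vehicle arrays (log2 fold change -0.47 ± 0.21 SE, limma adjusted p = 0.258). The other probe, ILMN_1701173, read 6.29 and 6.27 for WCE, against 5.72 and 5.54 for vehicle (0.65 ± 0.17, adjusted p over all probes 0.120). The groups did not overlap for either probe, and no direction is given for KCNK6. The remaining leak channels were the acid-sensitive KCNK3, KCNK9 and KCNK5 at -0.09, -0.12 and 0.13, and the mechanosensitive KCNK4 at 0.00, with overlapping groups throughout. A second KCNK4 probe had -0.14. KCNK9 met the detection rule only through the vehicle arrays, which favours a lower WCE value.

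Of the 6 tested auxiliary and regulatory genes 0 passed in limma's fit, and 2 had an unadjusted p below 0.05, KCNMB4 and KCNMB3. KCNIP3, a calcium-binding subunit of A-type channels that is also known as the repressor DREAM, had levels of 7.53 and 7.89 on the WCE arrays, against 7.97 and 7.81 on the vehicle arrays. These groups overlapped, and the log2 fold change was -0.18 ± 0.18 (SE, 95% interval -0.59 to 0.23). KCNAB1, a cytoplasmic beta subunit of Shaker channels, read 6.57 and 5.30 for WCE, against 5.64 and 5.81 for vehicle. Its WCE arrays lay on either side of the vehicle arrays, and the log2 fold change was 0.21 ± 0.34 SE. KCNRG, which regulates channel assembly, had 0.06 and lies within overlapping genes in the annotation, so its signal cannot be assigned to it alone.

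Partners outside the KCN symbols were listed with the members. Of 9 listed, all had a named probe, 3 were tested and 1 passed, LRRC26. DPP10 and AMIGO1, which bind A-type and delayed rectifier pores, had log2 fold changes of -0.24 and -0.21. Of 10 related cation channels of the HCN and CNG families, 3 were tested and 0 passed, with values of -0.57 for CNGB1 and 0.28 for HCN4.

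**Figure D5:**
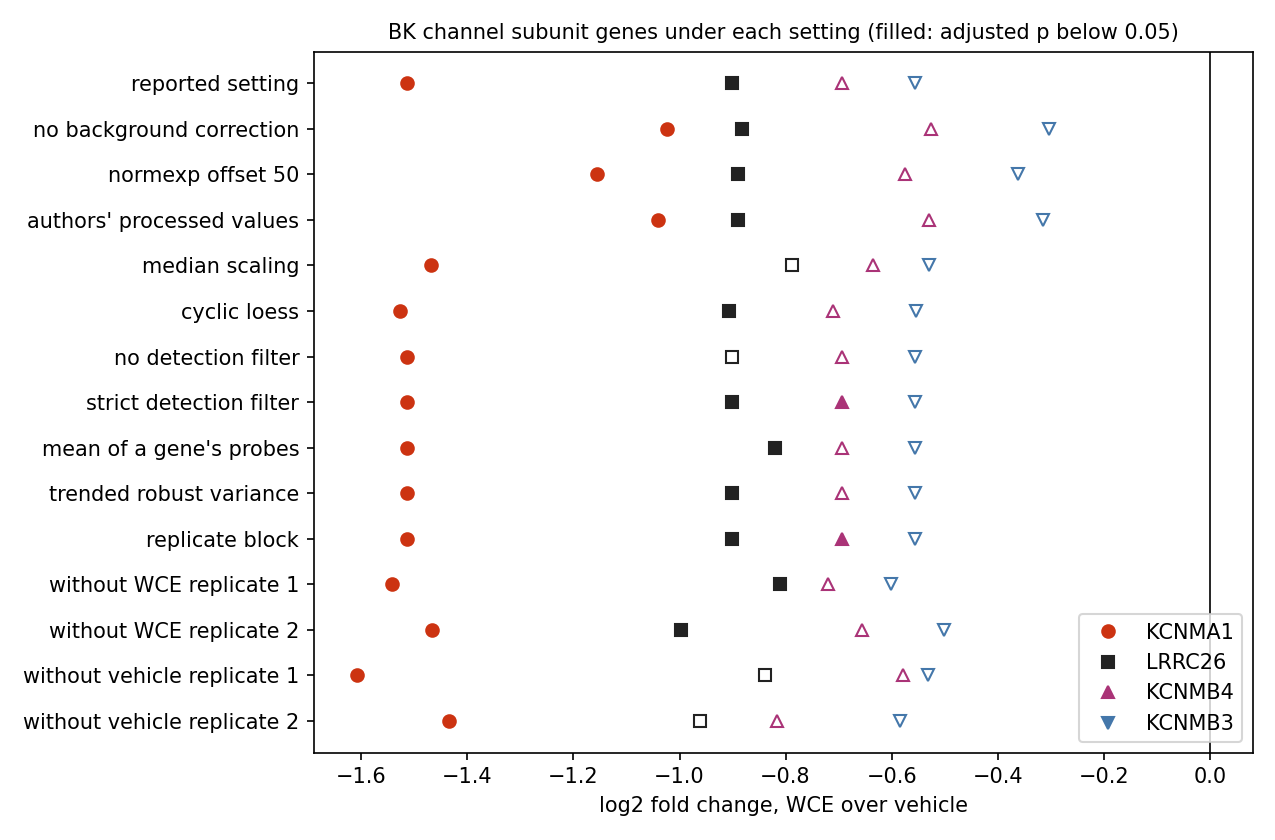
Log2 fold change, WCE minus vehicle (x axis), of KCNMA1, LRRC26, KCNMB4 and KCNMB3 under the reported and the alternative settings (y axis), with filled points where the adjusted p is below 0.05. KCNMA1 stays between -1.61 and -1.02 with filled points throughout, and the points of the other genes lie below 0 and are filled under some of the settings or none.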

How the data were processed

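Members and lists were chosen with earlier results of these data known. Raw intensities, not background-subtracted, and detection p-values were deposited by the authors, per the file headers. The authors also deposited log2 values made by a normalization that no header or label records. They had the rank order of the raw signals (Spearman's rho 1) and a median of 6.40 on each array. Slide and scanner: not given in the sources used here.

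Raw signals were corrected with normexp (negative controls inferred from detection p-values, offset 16), quantile-normalized and put on the log2 scale in limma 3.58.1 under R 4.3.3. Probes with a detection p below 0.05 on both arrays of a group were kept, 21996 of 47320, and the brightest kept probe with a gene symbol stood for its gene. The difference between WCE and vehicle was fitted with lmFit and moderated with eBayes (2 residual and 7.10 prior degrees of freedom), with Benjamini-Hochberg adjustment over all genes or probes. An exact permutation of 2 against 2 arrays cannot give a two-sided p below 0.333. The steps were tested on simulated data.

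Array values were given for members past the threshold, the 10 largest absolute fold changes and the 5 highest mean signals, and for listed genes of other symbols that passed or, failing that, at most the 2 of largest change. Alternatives covered background correction, normalization, the authors' log2 values, the detection filter, probe choice, the variance model, the replicate number as a block and leaving out each array. Sequences were read from a RefSeq table with Python 3.11.15. Proteins are not analysed here. The number of arrays limits the precision.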

Additional observations from a re-analysis of the deposited data

How the results depend on the processing

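KCNMA1 passed in the gene fit under all 14 alternative settings. The count of called members was 1 except for 3 with the replicate block (KCNMA1, KCNH6 and KCNMB4, with 1 residual degree of freedom), 2 with the strict detection filter (KCNMB4 added, 15 members tested), and 1 to 2 when an array was left out (KCNH6 added without WCE replicate 1). Over all genes the count was 222, against 52 with no filter, 744 with the replicate block, 130 with median scaling, 402 with the authors' values, 390 without background correction, 368 with an offset of 50, 457 with the trended robust variance, and 64 to 861 when an array was left out. Called member probes numbered 1, against 0 with no filter, 2 with the replicate block, and 0 to 2 when an array was left out (0 without vehicle replicate 2, where the KCNMA1 adjusted p was 0.0564, and 2 without WCE replicate 1). Of 29 detected members, 18 met a detection p below 0.01 on both arrays of a group, 23 were detected on all 4 arrays and 41 on at least 1.

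KCNK6 turned to 0.087 with the mean of its probes. With the strict filter it was 0.65, because ILMN_1701173 then stood for the gene. The same probe stood for it without vehicle replicate 1 (0.74) or 2 (0.56). Without WCE replicate 1 (-0.73) or 2 (-0.21) the gene kept ILMN_2074773, so the sign changed with the probe. For KCNIP3, leaving out an array gave -0.36 to 0.0043. Same-numbered arrays deviated at r = -0.119. With 2 arrays in each group, this cannot show whether they share more than a number. With numbers crossed, chosen after seeing the data, 1 member was called. Leaving out an array assumes that the lone array varies like the other group. Signals near background limit the 61 untested members.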

Other observations

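Potassium also enters cells through pumps and cotransporters, which were listed beside the channels. Of 24 such genes 19 had a named probe and 11 were tested, 0 of them past the threshold in limma's fit. The 11 had a median log2 fold change of 0.21 (10 above 0, 1 below). Over all tested genes the median was 0.01 and 47.8% lay below 0. ATP12A, the gene below 0, met the detection rule only through the vehicle arrays, which favours a lower WCE value. FXYD2, at 0.42, met it only through the WCE arrays, which favours a higher value. SLC12A2, the sodium-potassium-chloride cotransporter NKCC1, had levels of 10.54 and 10.39 on the WCE arrays, against 9.75 and 9.67 on the vehicle arrays. Its log2 fold change was 0.76 ± 0.16 (SE, limma adjusted p = 0.0536), and it passed in 6 of 14 alternatives. ATP1B1, the beta subunit of the sodium-potassium pump, had 12.08 and 11.89 on the WCE arrays, against 11.13 and 11.34 on the vehicle arrays. Its log2 fold change was 0.75 ± 0.17 (SE, limma adjusted p = 0.0643), and it passed in 7 of 14 alternatives. For both genes the WCE arrays were the higher ones and the groups did not overlap, as for 50.3% of all genes in either direction. Second probes had log2 fold changes of 0.69 ± 0.27 SE for SLC12A2 and 0.75 ± 0.17 SE for ATP1B1. Their limma adjusted p over all probes was 0.233 and 0.0926.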
